A study of Mus musculus with 8 samples.

Results

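The genes described here encode the vascular endothelial growth factor (VEGF) and angiopoietin signalling system of blood and lymphatic vessels. They comprise 4 secreted ligands (Vegfa, Vegfc, Angpt1 and Angpt2), 5 receptor tyrosine kinases (Kdr, Flt1, Flt4, Tek and Tie1) and the endothelial adhesion molecule Pecam1. Members were taken by gene symbol in the platform annotation, with the brightest probe set where a gene had several. The list of members was drawn up with earlier results of these data known. All 10 were found, each on 1 probe set, among 19505 genes measured. Expression was measured on arrays in the uterus of 8 wildtype C57BL/6J mice on day 4.5 of pseudopregnancy, which follows mating to a vasectomized male and gives a uterus under pregnancy hormones without embryos. The ecig group held 4 mice given nicotine aerosol (24 mg/mL nicotine in propylene glycol and vegetable glycerin) for 3 hours a day from an electronic cigarette device, 5 days a week for the 4 weeks that preceded mating and each day of pseudopregnancy up to collection. The sham group held 4 mice kept in room air. As no group breathed aerosol without nicotine, the effects of nicotine, of the carrier liquids and of the heated device cannot be told apart, and the labels state no age for the mice.

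VEGF-A is the main growth and permeability signal for blood vessel endothelium and acts through the receptor VEGFR2, encoded by Kdr, while VEGFR1, encoded by Flt1, binds the same ligand tightly and can act as a decoy. VEGF-C acts mainly on VEGFR3, encoded by Flt4, which in adults marks lymphatic vessels. Angiopoietin-1 activates the receptor TIE2, encoded by Tek, and keeps vessels quiet and tight, whereas angiopoietin-2 is made by endothelium and often opposes it, and TIE1 is a partner of TIE2 without a classical ligand of its own. In the mouse uterus, vessels become more permeable where an embryo attaches, and new vessels form in the decidua afterwards. The comparison asks whether inhaled aerosol altered this system at the time at which the uterus is receptive.

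Values are log2 expression as deposited, on a scale where 1 unit is a doubling, and levels of different probe sets are not compared with each other. The tissue carried the markers of uterus, with Hoxa10, a patterning gene of the uterus, at 10.87 to 11.22 in ecig and 11.01 to 11.36 in sham mice, and Acta2, which encodes smooth muscle actin, at 12.49 to 13.05 in ecig and 12.74 to 13.02 in sham mice. Endothelium was represented in both groups by 18 measured markers other than the members, 11 of which the pathway lists also hold, and whose mean per mouse, here called the endothelium marker score, ran from 8.19 to 8.62 in ecig and from 7.98 to 8.53 in sham mice. In whole uterus, fewer endothelial cells and less RNA per cell cannot be told apart. The labels call the samples of a group biological replicates, each taken here as 1 mouse, and the 8 arrays limit the precision of every value. An earlier analysis of these arrays had set ecig mice 2 and 4 apart, and limma's array weights were 0.787 and 0.491 for them, 0.721 and 1.18 for ecig mice 1 and 3, and 1.07 to 1.74 in sham mice.

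None of the 10 genes was called changed between ecig and sham uteri. Limma's test, adjusted by Benjamini-Hochberg over all 22206 probe sets, gave adjusted p-values from 0.838 for Angpt1 to 0.998 for Tie1, and it called 0% of all genes. At an unadjusted limma p under 0.05 there were 0 members, where 5.56% of all genes and 5.42% of all probe sets reached it, and groups that did not overlap were found for 0 members, against 2.77% of all genes. The mean was higher in ecig mice for 9 of 10 members and lower for Vegfc, with a median log2 difference of 0.08, where 49.8% of all genes were higher with a median of -0.00054. As 30 of the 45 pairs of members correlated positively over the mice, these directions are not separate observations. The 95% intervals of the members, taken one by one, lay between 0.814-fold and 1.498-fold of the sham level. A p that misses the threshold does not show that the levels were alike. Without ecig mice 2 and 4, which were set apart on these same arrays, limma again called 0 members. The difference was then 0.426 for Angpt1 (limma unadjusted p = 0.0170, where 3.98% of all probe sets were under 0.05) and -0.149 for Vegfa. A p after such a choice of mice is not a separate test. The groups, then 2 against 4 mice, did not overlap for Angpt1 and Vegfc, where 12% of all genes did not, a share near that of the members.

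**Figure D1:**
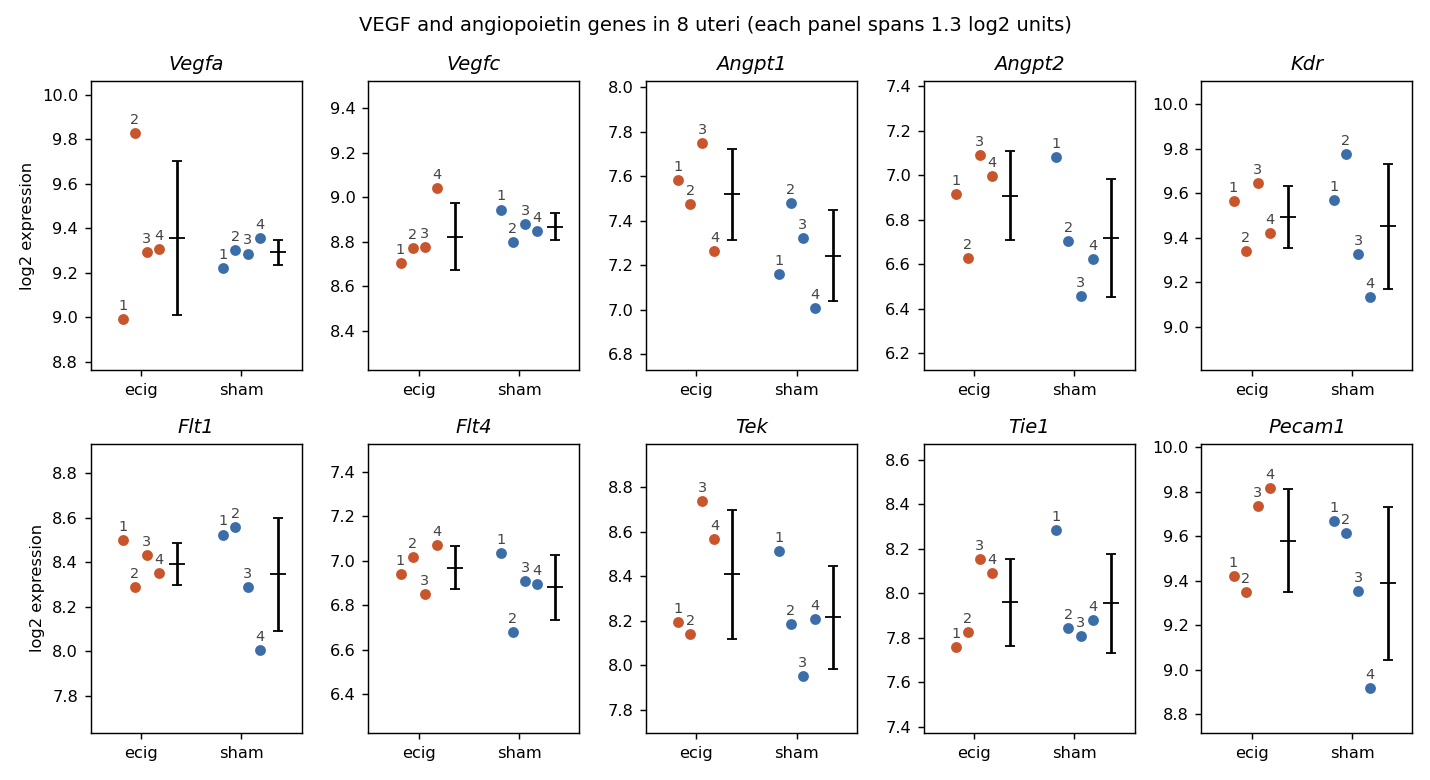
Log2 expression of the 10 genes (vertical axis, 1.3 log2 units in every panel) in each of 4 ecig mice (left, orange) and 4 sham mice (right, blue), numbered by replicate, with group mean and SD in black. The groups overlap in every panel, ecig mouse 2 stands highest for Vegfa, and sham mouse 4 stands lowest for Kdr, Flt1 and Pecam1.

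Of the ligands, Vegfa stood at 8.99, 9.83, 9.29 and 9.31 in ecig mice 1 to 4, against 9.22, 9.30, 9.29 and 9.36 in sham mice 1 to 4. The sham mice lay close together, while ecig mouse 1 was the lowest and ecig mouse 2 the highest of all 8. The mean was 9.36 ± 0.35 in ecig and 9.29 ± 0.06 in sham mice (SD, n = 4 each), and the log2 difference was 0.06 ± 0.15 (SE), which changed sign to -0.09 without ecig mouse 2. That mouse also had the highest adipocyte marker score, 1.19 above the sham mean, and the lowest macrophage, smooth muscle and stroma scores, at -0.578, -0.534 and -0.367 relative to it, and the part of these in its Vegfa value was not tested. Its score over 20 hypoxia targets, a group of genes to which Vegfa itself is usually counted, was -0.0848 relative to the sham mean. The adipocyte score of ecig mouse 1, the lowest for Vegfa, was also high, at 0.803 above the sham mean, and in the other 6 mice it ran from -0.135 to 0.251. Of 8 measured adipocyte markers 7 had higher means in ecig mice (median log2 difference 0.45, 0 called by limma after adjustment and 1 at an unadjusted p under 0.05), and their score ran from 5.21 to 6.52 in ecig and from 5.20 to 5.58 in sham mice. One probe set covers Vegfa, and the splice forms of VEGF-A, which differ in how far they diffuse, were not separated.

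Vegfc, the ligand of the lymphatic receptor, stood at 8.70, 8.77, 8.78 and 9.04 in ecig mice 1 to 4, against 8.94, 8.80, 8.88 and 8.85 in sham mice. Ecig mice 1 to 3 lay below all sham mice and ecig mouse 4 above them. The log2 difference was -0.04 ± 0.10 (SE), and without ecig mouse 4 it was -0.12, with the groups apart, as they were for 4.64% of all genes in that setting, and a limma unadjusted p of 0.194. Vegfc varied little in the sham group (8.87 ± 0.06 SD), as did Vegfa, and more in the ecig group (8.82 ± 0.15 SD). A wider spread in ecig mice was common on these arrays, the SD being lower in ecig for only 6632 of 19505 genes. Among the 10 members it was lower in ecig for 6.

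Angpt1 had the largest difference of the 10. The agonist of TIE2 stood at 7.58, 7.47, 7.75 and 7.26 in ecig mice 1 to 4, against 7.16, 7.48, 7.32 and 7.00 in sham mice. Ecig mice 1 and 3 lay above every sham mouse, ecig mouse 2 lay just below sham mouse 2, and ecig mouse 4 fell among the sham mice. The mean was 7.52 ± 0.20 in ecig and 7.24 ± 0.20 in sham mice (SD, n = 4 each), a 1.21-fold higher mean with a 95% interval from 0.986-fold to 1.49-fold. Limma gave an unadjusted p of 0.0647 and an adjusted p of 0.838. The log2 difference of 0.28 ± 0.13 (SE) kept its direction without any 1 mouse, from 0.198 without sham mouse 4 to 0.361 without ecig mouse 4, with limma's adjusted p at or above 0.531 for every member under every setting tried.

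Angpt2, the endothelial antagonist, stood at 6.91, 6.63, 7.09 and 7.00 in ecig mice 1 to 4, against 7.08, 6.70, 6.45 and 6.62 in sham mice. Its mean over the 8 mice, 6.81, was below the array median of 7.08, and no background level was available to judge detection. Sham mouse 1 lay with the higher ecig mice and ecig mouse 2 with the other sham mice. The log2 difference was 0.19 ± 0.15 (SE), and it was 0.315 without sham mouse 1 (limma unadjusted p = 0.0402, adjusted p = 0.946). The log2 value of Angpt2 minus that of Angpt1 in each mouse, whose own level has no meaning between probe sets, differed between ecig and sham mice by -0.08, with an SD of 0.25 among ecig and 0.36 among sham mice (n = 4 each). The difference did not pass an exact two-sided permutation test (p = 0.771, where 4 against 4 mice can give no p below 0.0286), and it was 0.065 without sham mouse 1.

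Promoters are shown for Kdr and Flt1, whose values correlated past the threshold over the mice, and for Tek and Tie1, the receptor pair with the next highest coefficient. The windows hold the 250 bases upstream of the annotated start, read 5′ to 3′ on the strand of the gene from RefSeq (GRCm38.p6), at chr5:75978456-75978705 (minus strand) for Kdr, chr5:147726012-147726261 (minus) for Flt1, chr4:94739039-94739288 (plus) for Tek and chr4:118489850-118490099 (minus) for Tie1. Capitals mark AGGAAG and CGGAAG on either strand, letters that ETS factors, a family that includes endothelial regulators such as ERG, can bind. The marked motifs do not overlap each other.
Kdr: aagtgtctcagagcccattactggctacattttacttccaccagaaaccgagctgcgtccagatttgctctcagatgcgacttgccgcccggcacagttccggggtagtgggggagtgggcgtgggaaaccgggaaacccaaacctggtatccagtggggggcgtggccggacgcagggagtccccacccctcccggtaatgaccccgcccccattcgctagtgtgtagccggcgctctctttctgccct
Flt1: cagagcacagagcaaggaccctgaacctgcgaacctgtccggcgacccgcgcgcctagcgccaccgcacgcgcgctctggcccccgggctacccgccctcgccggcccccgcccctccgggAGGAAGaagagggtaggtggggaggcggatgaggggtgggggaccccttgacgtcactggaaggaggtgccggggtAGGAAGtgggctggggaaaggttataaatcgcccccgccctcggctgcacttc
Tek: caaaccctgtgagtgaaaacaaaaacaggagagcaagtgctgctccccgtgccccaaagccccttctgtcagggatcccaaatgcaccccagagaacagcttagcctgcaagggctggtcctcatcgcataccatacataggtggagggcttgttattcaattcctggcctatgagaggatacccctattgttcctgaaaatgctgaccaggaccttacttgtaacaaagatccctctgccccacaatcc
Tie1: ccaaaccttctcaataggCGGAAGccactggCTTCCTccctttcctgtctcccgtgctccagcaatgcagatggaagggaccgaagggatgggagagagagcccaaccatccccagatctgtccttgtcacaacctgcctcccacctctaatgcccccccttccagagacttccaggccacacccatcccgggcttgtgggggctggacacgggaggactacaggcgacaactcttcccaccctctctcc
Flt1 held AGGAAG 2 times and Tie1 held AGGAAG and CGGAAG 1 time each, while the Kdr and Tek windows held neither. Either motif was present in 39.2% of 32851 promoter windows of the same length. Of the 10 members, 7 had a window, and those of Vegfa, Vegfc and Flt4 held neither motif. Neither pair thus shared these letters within the windows, which says nothing of the factors.

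Kdr, the main signalling receptor for VEGF-A, stood at 9.57, 9.34, 9.65 and 9.42 in ecig mice 1 to 4, against 9.57, 9.78, 9.33 and 9.13 in sham mice. Sham mice 2 and 4 were the highest and the lowest of the 8, and all ecig mice lay between them. The log2 difference was 0.04 ± 0.14 (SE), and it was -0.0656 without sham mouse 4. Flt1, which encodes the decoy receptor, followed the same order at the ends, with 8.50, 8.29, 8.43 and 8.35 in ecig mice against 8.52, 8.56, 8.29 and 8.01 in sham mice. Its log2 difference was 0.05 ± 0.13 (SE), and -0.0648 without sham mouse 4. The membrane and soluble forms of VEGFR1 were not separated by the probe set.

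Flt4, the lymphatic receptor, stood at 6.94, 7.02, 6.85 and 7.07 in ecig mice 1 to 4, against 7.03, 6.68, 6.91 and 6.90 in sham mice. All lay below the array median of 7.08, and no background level was available to judge detection. The log2 difference was 0.09 ± 0.10 (SE), with only sham mouse 2 standing low. Markers of lymphatic endothelium other than Flt4 averaged 7.83 to 8.26 in ecig and 7.75 to 8.07 in sham mice, with ecig mouse 2 the highest. Of these 9 markers 7 had higher means in ecig mice, with a median log2 difference of 0.09, and limma called 0 of them after adjustment and 0 at an unadjusted p under 0.05.

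Tek, which encodes TIE2, stood at 8.19, 8.14, 8.74 and 8.57 in ecig mice 1 to 4, against 8.51, 8.19, 7.95 and 8.21 in sham mice. Ecig mice 3 and 4 lay above all sham mice and ecig mice 1 and 2 among them. The log2 difference was 0.19 ± 0.16 (SE). Tie1, its partner, stood at 7.76, 7.83, 8.16 and 8.09 in ecig mice, against 8.29, 7.84, 7.81 and 7.88 in sham mice. Ecig mice 3 and 4 and sham mouse 1 were high for both receptors, and the group means of Tie1 were 7.96 ± 0.19 and 7.95 ± 0.22 in ecig and sham mice (SD, n = 4 each). Its log2 difference of 0.0046 ± 0.14 (SE) was the smallest of the members in size and changed sign under several settings.

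Pecam1, which encodes an adhesion molecule of endothelial junctions that platelets and some leukocytes also carry, stood at 9.42, 9.35, 9.74 and 9.82 in ecig mice 1 to 4, against 9.67, 9.61, 9.36 and 8.92 in sham mice. Ecig mice 3 and 4 were the highest of the 8 and sham mouse 4 the lowest. The log2 difference was 0.19 ± 0.18 (SE) and shrank to 0.0355 without sham mouse 4. The score of 9 neutrophil and platelet markers ran from 6.41 to 6.54 in ecig and 6.44 to 6.72 in sham mice, with sham mouse 4, the lowest for Pecam1, the highest.

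**Figure D2:**
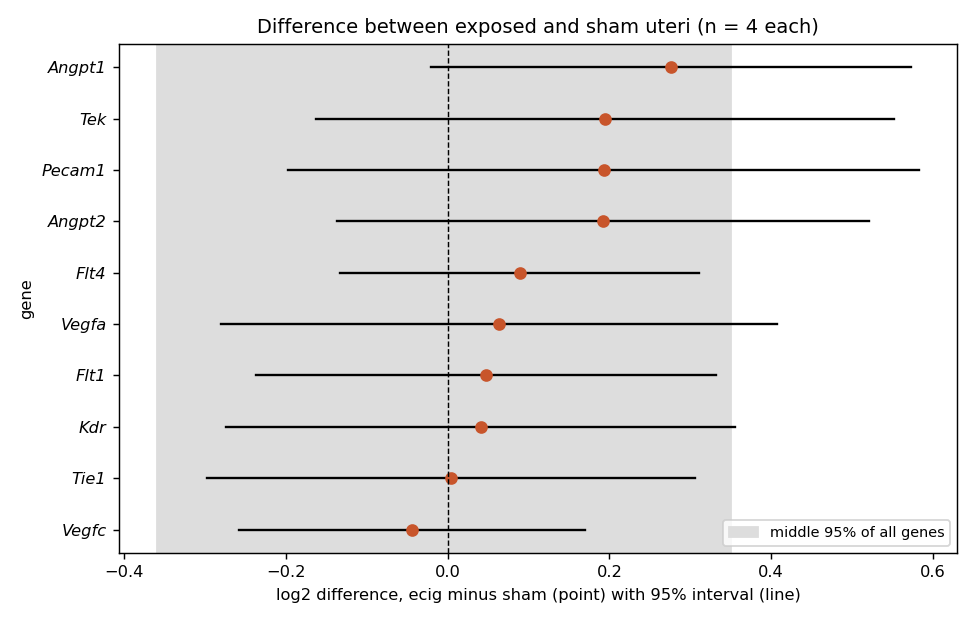
Log2 difference, ecig minus sham (horizontal axis), of each gene (vertical axis) with its 95% interval from limma, above a grey band that holds the middle 95% of all 19505 genes, from -0.359 to 0.35. All 10 points lie within the band and all 10 intervals include 0, with Angpt1 at 0.28 the farthest from it.

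The members were set against the other endothelial markers in each mouse. The endothelium marker score averaged 8.42 ± 0.19 in ecig and 8.31 ± 0.25 in sham mice (SD, n = 4 each), a difference of 0.11 (exact two-sided permutation p = 0.514). It was 0.00035 without sham mouse 4, whose score of 7.98 was the lowest. Of its 18 markers 15 had higher means in ecig mice, with a median log2 difference of 0.11, and limma called 0 after adjustment and 0 at an unadjusted p under 0.05. Cdh5, which encodes VE-cadherin, stood at 10.12, 9.56, 10.17 and 10.21 in ecig mice, against 10.27, 10.13, 9.88 and 9.20 in sham mice, so that sham mouse 4 was lowest and ecig mouse 2 next.

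Over the 8 mice, Pecam1 followed this score most closely (Pearson r = 0.963, exact permutation p = 0.000496, adjusted p = 0.00496 over 10 genes, and Spearman rho = 0.929, exact p = 0.00223, adjusted p = 0.0223). Without the 2 mice farthest from the median score, sham mouse 4 and ecig mouse 2, r was 0.908. Kdr (r = 0.832, exact permutation p = 0.0104, adjusted p = 0.0379) and Flt1 (r = 0.826, exact permutation p = 0.0114, adjusted p = 0.0379) also passed by Pearson. By rank they did not pass (rho = 0.786 and 0.690, with adjusted p = 0.0931 and 0.139 from the exact permutation test). With 1 mouse left out, the adjusted p for Kdr passed without ecig mouse 4 or sham mouse 2 and for Flt1 without ecig mouse 3 or 4, and missed the threshold without any other mouse, up to 0.198 for Kdr and 0.277 for Flt1 without sham mouse 4 (exact permutation). Without sham mouse 4 and ecig mouse 2 together, which also narrows the range of the score, r was 0.551 for Kdr and 0.383 for Flt1. Without sham mouse 4 alone it was 0.680 and 0.587, and without ecig mouse 2 alone 0.819 and 0.825, so sham mouse 4 weighs most in both relations. Angpt2 passed by rank (rho = 0.905, exact permutation p = 0.00456, adjusted p = 0.0228) and not by Pearson (r = 0.764, exact permutation p = 0.0281, adjusted p = 0.0701), with r = 0.811 without sham mouse 4 and ecig mouse 2.

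Tek (r = 0.705, exact permutation p = 0.0497, adjusted p = 0.0995, rho = 0.690, exact p = 0.0694) and Tie1 (r = 0.632, exact permutation p = 0.0947, adjusted p = 0.158, rho = 0.643, exact p = 0.0962) did not pass, nor by rank after adjustment (p = 0.139 and 0.160, exact permutation). Without the 2 farthest mice their r was 0.929 and 0.778, with 6 mice left. No relation was detected for Angpt1 (r = 0.517, exact permutation p = 0.189, rho = 0.357, exact p = 0.389), Vegfc (r = 0.203, exact permutation p = 0.629, rho = 0.238, exact p = 0.582), Vegfa (r = -0.354, exact permutation p = 0.388, rho = -0.452, exact p = 0.267) or Flt4 (r = -0.0642, exact permutation p = 0.875, rho = 0.0714, exact p = 0.882), with adjusted p-values at or above 0.270 by Pearson and 0.382 by rank. Without the 2 farthest mice these were 0.220, 0.169, 0.359 and -0.0044, the sign of Vegfa turning. Whether the coefficients of 2 members differ from each other was not tested. All values of a mouse come from 1 RNA sample and 1 array, which the points of each relation share, and the labels name no batch within which they could be repeated. Taken as deviations from the group means, the coefficients of Pecam1, Kdr and Flt1 were 0.963, 0.840 and 0.827. When the score entered the fit over all probe sets as a covariate, the log2 difference was -0.0514 for Kdr, -0.0310 for Flt1 and -0.0633 for Tie1, and limma called 0 members. It was 0.0532 ± 0.093 for Pecam1, 0.106 ± 0.12 for Angpt2 and 0.107 ± 0.14 for Tek (SE), each smaller than without the covariate by over 1.5 times. For Angpt1 and Vegfa it was 0.230 ± 0.13 and 0.115 ± 0.16 (SE). The score itself differed between the groups by 0.11, and by 0.00035 without sham mouse 4. The covariate fit was not repeated without that mouse.

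**Figure D3:**
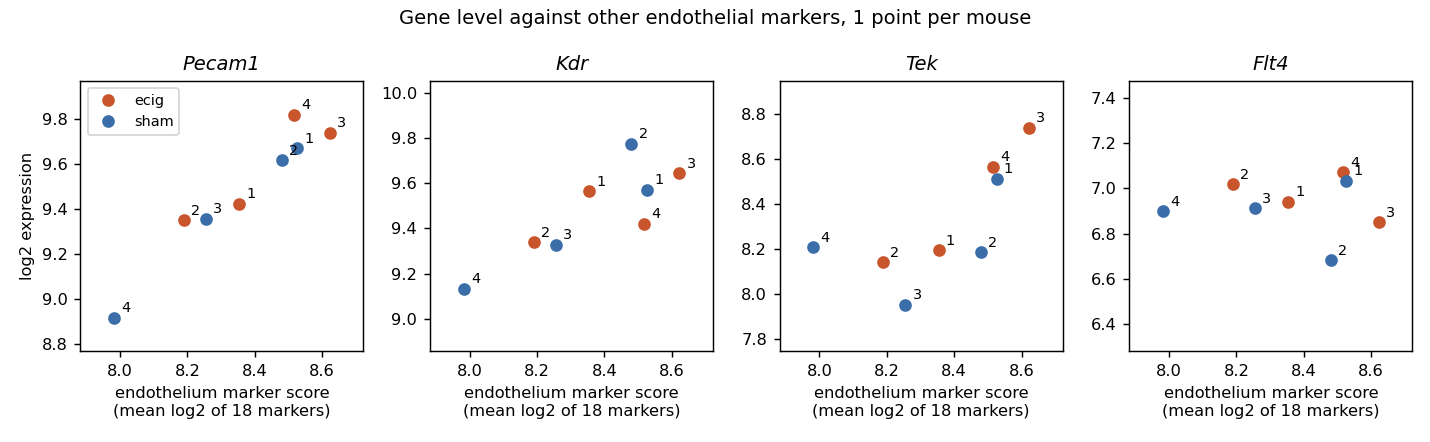
Log2 expression of Pecam1, Kdr, Tek and Flt4 (vertical axes) against the endothelium marker score (horizontal axis, mean log2 of 18 other endothelial markers), with 1 point per mouse, ecig orange and sham blue, numbered by replicate. Points of Pecam1 climb with the score (r = 0.963), those of Kdr climb less tightly (r = 0.832) with sham mouse 4 at the low end, and those of Flt4 do not (r = -0.0642).

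Among themselves, 2 of 45 pairs of members passed an exact permutation test on Pearson's r after Benjamini-Hochberg adjustment over the 45, and 0 passed by rank, where 7 pairs had an unadjusted p under 0.05 by Pearson. The receptor pair Kdr and Flt1 had r = 0.936 (exact permutation p = 0.00057, adjusted p = 0.0257, rho = 0.905, exact p = 0.00456), and 0.879 without sham mice 4 and 2, the farthest from the median of Kdr. Tek and the ligand Angpt2 had r = 0.905 (exact permutation p = 0.00166, adjusted p = 0.0374, rho = 0.833, exact p = 0.0154), and 0.834 without sham mouse 3 and ecig mouse 3. With each mouse left out in turn, r ran from 0.910 to 0.953 for Kdr with Flt1 and from 0.861 to 0.967 for Tek with Angpt2. The adjusted p then stayed under 0.05 for both pairs without ecig mouse 1 or sham mouse 1, and lay above it without any other mouse, up to 0.179 for Kdr with Flt1 and 0.390 for Tek with Angpt2. Without ecig mice 2 and 4 both r stayed high, at 0.938 and 0.890, with an adjusted p of 0.281 for each (exact permutation). Tek and Tie1 had r = 0.858, which did not pass (exact permutation p = 0.00987, adjusted p = 0.148, rho = 0.786, exact p = 0.0279), and 0.858 also without ecig mice 3 and 4.

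Across the pairs of receptors, Kdr with Tek had r = 0.373 (exact permutation p = 0.361, rho = 0.357, exact p = 0.389) and Flt1 with Tie1 r = 0.268 (exact permutation p = 0.536, rho = 0.190, exact p = 0.665). Ligands and their receptors did not pass elsewhere: Vegfa with Kdr had r = -0.370 (exact permutation p = 0.378, rho = -0.381, exact p = 0.360), Vegfc with Flt4 r = 0.495 (exact permutation p = 0.215, rho = 0.405, exact p = 0.327), and Angpt1 with Tek r = 0.208 (exact permutation p = 0.621, rho = 0, exact p = 1). Adjusted over the 45 pairs, p was at or above 0.604 for these 5. Without the 2 mice farthest from the median of Kdr or Flt1 the receptor pairs had 0.712 and 0.469. Without the 2 mice farthest from the median of the ligand, the ligand pairs had -0.504, -0.158 and -0.564, so the coefficients of Vegfc with Flt4 and Angpt1 with Tek turned negative. Vegfa with its other receptor Flt1 had r = -0.393 (exact permutation p = 0.264, adjusted p = 0.625, rho = -0.619, exact p = 0.115), and -0.730 without ecig mice 2 and 1.

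**Figure D4:**
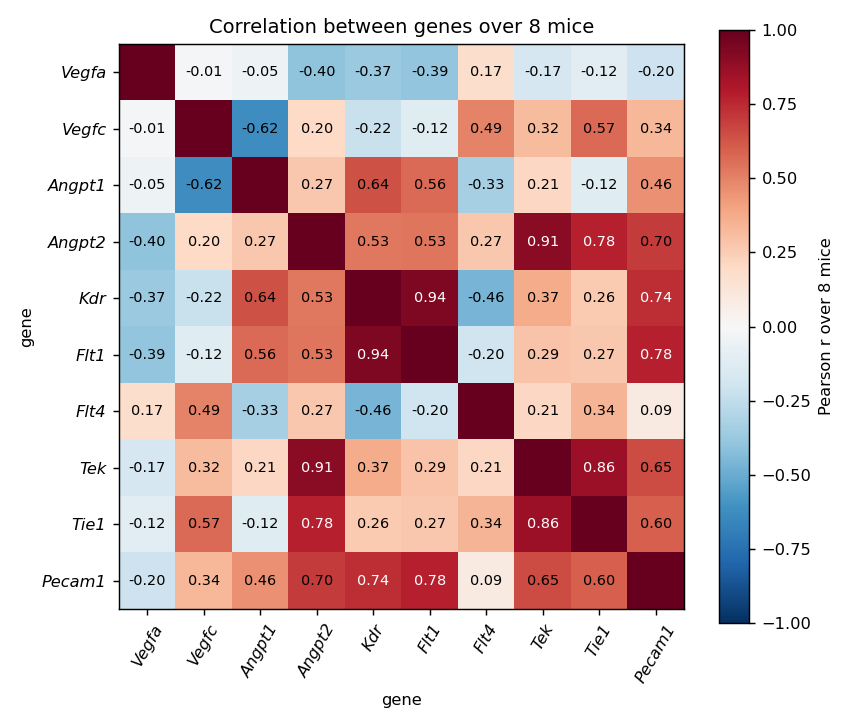
Pearson's r over 8 mice between each pair of the 10 genes (both axes), from -1 (blue) to 1 (red), with the value printed in each cell. Kdr with Flt1 (0.94), Angpt2 with Tek (0.91) and Tek with Tie1 (0.86) hold the highest values, and the value of Vegfa farthest from 0 is -0.40, with Angpt2.

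The genes whose pattern over the 8 mice was most like the mean of the 5 receptors and Pecam1 were, of 9753 genes above the array median, Procr, which encodes the endothelial protein C receptor (r = 0.963, rho = 0.952), Ell2, a transcription elongation factor (r = 0.954, rho = 0.976), and Kctd9 (r = 0.953, rho = 0.976). Procr stood at 7.04, 6.64, 7.55 and 7.33 in ecig mice, against 7.77, 7.36, 6.74 and 6.29 in sham mice, a wider spread than any receptor showed. Most like Vegfa were Gemin7 (r = 0.979, rho = 0.929), Spred2, an inhibitor of RAS signalling (r = 0.970, rho = 0.952), and Apba1 (r = 0.966, rho = 0.548). Spred2 stood at 10.24 in ecig mouse 2 and 9.33 in ecig mouse 1, against 9.43 to 9.65 in sham mice. Ndfip1 (r = 0.959, rho = 0.929) was most like Vegfc, Eipr1 (r = 0.894, rho = 0.976) most like Angpt1 and Klhl4 (r = 0.940, rho = 0.881) most like Angpt2. These genes were picked as the highest of many, so no p is given.

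The rest of the pathway was read from 8 lists, and limma called 0 genes of any of them after adjustment. At an unadjusted limma p under 0.05, 2.98% of all genes were higher and 2.58% lower, against which the counts of each list are to be read. Groups did not overlap for 2.77% of all genes, the share to set beside each gene below without overlap. Of 13 other ligands, co-receptors and partners, 10 had higher and 3 lower means, with a median log2 difference of 0.08 and 0 at an unadjusted limma p under 0.05. Vegfd, also a ligand of VEGFR3, stood at 8.59, 8.75, 9.06 and 9.59 in ecig mice, against 8.97, 8.79, 8.33 and 8.42 in sham mice, a log2 difference of 0.37 ± 0.22 (SE, limma adjusted p = 0.838). Itga5, a fibronectin receptor chain, was -0.43 ± 0.22 (SE). Itgb1, its partner chain, lay at 11.37 to 11.48 in ecig and 11.49 to 11.62 in sham mice, without overlap but with a log2 difference of only -0.13. Of 20 signal carriers below the receptors, 10 had higher and 10 lower means (median 0.02, mean -0.0080), with 1 higher at an unadjusted limma p under 0.05. The kinase Fyn lay at 8.86 to 9.22 in ecig and 8.68 to 8.79 in sham mice, without overlap (log2 difference 0.28 ± 0.10 SE, limma adjusted p = 0.838), and Akt1, which encodes a kinase that carries survival signals of TIE2, had a log2 difference of -0.27 ± 0.13 (SE).

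Of 21 genes that VEGF induces in endothelium or that mark sprouting tip cells, 17 had lower and 4 higher means, with a median log2 difference of -0.16, and 1 was lower at an unadjusted limma p under 0.05. That gene was Col4a1, a basement membrane collagen chain, at 8.58, 8.27, 8.60 and 8.49 in ecig mice against 8.83, 8.82, 8.64 and 8.61 in sham mice (log2 difference -0.24 ± 0.10 SE, limma adjusted p = 0.838). Its partner chain Col4a2 lay at 9.06, 8.43, 9.19 and 8.99 in ecig mice against 9.24, 9.24, 9.24 and 9.25 in sham mice. The groups did not overlap for either chain, as for 2.77% of all genes, and ecig mouse 2 was the lowest for both. Of the stroma markers, 5 of 9 with higher means, the collagens Col1a1 (-0.52) and Col3a1 (-0.39) were also lower, again with ecig mouse 2 lowest. Igfbp3, a binding protein of insulin-like growth factors, went the other way with a log2 difference of 0.86 ± 0.39 (SE), and ecig mouse 4 (10.86) and ecig mouse 2 (9.96) were the highest of the 8. The mean of the list over its genes, -0.06, was smaller in size than its median. The list score was 0.248 above the sham mean in sham mouse 1 and -0.193 relative to it in sham mouse 4, while the ecig mice ran from -0.157 to 0.0097.

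Of 18 transcription factors listed for endothelium, 14 had higher and 4 lower means (median log2 difference 0.09), with 0 at an unadjusted limma p under 0.05. In whole uterus the cells that express them were not separated. Hey1, a target of Notch, was 0.21 ± 0.10 (SE), Epas1, which encodes HIF-2α, was 0.20 ± 0.14 (SE), and Gata2 was -0.33 ± 0.25 (SE) on the log2 scale, each with a limma adjusted p at or above 0.838. Of 25 genes of Notch, ephrin, sphingosine phosphate, PDGF and FGF signalling, 15 had higher and 10 lower means (median 0.03), with 1 higher at an unadjusted limma p under 0.05. Jag1, a Notch ligand, lay at 8.67, 9.34, 8.81 and 9.02 in ecig mice against 8.81, 8.54, 8.62 and 8.43 in sham mice (log2 difference 0.36 ± 0.15 SE, limma adjusted p = 0.838). Of 14 angiogenesis inhibitors, 9 had higher and 5 lower means (median 0.06, while the mean was -0.04), with 0 at an unadjusted limma p under 0.05. Cxcl10, a chemokine that restrains vessels, had a log2 difference of -0.38 ± 0.19 (SE) and Spry2, an inhibitor of receptor kinase signals, 0.26 ± 0.16 (SE). The values of Cxcl10, from 5.11 to 6.15, all lay below the array median of 7.08.

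Of 21 genes of junctions and vascular permeability, 7 had higher and 14 lower means (median log2 difference -0.02), with 1 higher at an unadjusted limma p under 0.05. Some of them, such as Tjp1, are not particular to endothelium, and cell types were not separated. Calcrl, the receptor of adrenomedullin, a peptide that widens vessels and tightens their walls, lay at 9.12, 9.08, 9.16 and 8.98 in ecig mice against 9.03, 8.77, 8.74 and 8.57 in sham mice. Only sham mouse 1 reached into the ecig range, and the log2 difference was 0.31 ± 0.11 (SE, limma unadjusted p = 0.0169, adjusted p = 0.838). Cldn5, the claudin of endothelial tight junctions, lay at 7.48, 8.32, 7.65 and 8.04 in ecig mice against 7.62, 7.48, 7.49 and 7.54 in sham mice, ecig mice 2 and 4 standing above the rest. Of 20 hypoxia targets, 9 had higher and 11 lower means (median -0.04), with 2 higher and 1 lower at an unadjusted limma p under 0.05. Mxi1 was 0.45 ± 0.16 (SE) and Kdm3a, a histone demethylase, 0.41 ± 0.17 (SE), while Ldha, the lactate dehydrogenase chain of glycolysis, was -0.42 ± 0.19 (SE) on the log2 scale, each with a limma adjusted p of 0.838.

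Pericytes, smooth muscle and other cells of the uterus were read from markers too, again with 0 genes called by limma after adjustment. Of 10 pericyte markers, 4 had higher and 6 lower means (median log2 difference -0.01), with 1 lower at an unadjusted limma p under 0.05. Kcnj8, a potassium channel subunit, was 0.32 ± 0.15 (SE) and Notch3 -0.38 ± 0.17 (SE). All 10 smooth muscle markers had lower means (median -0.14, 1 at an unadjusted limma p under 0.05), with muscle of vessels and of the uterine wall not separated. Their score relative to the sham mean was -0.534 in ecig mouse 2, -0.228 in ecig mouse 4 and -0.229 in sham mouse 4, against -0.0286 to 0.103 in the other 5 mice. Sham mouse 4 thus combined the lowest endothelium score with a low smooth muscle score, the lowest Kdr, Flt1 and Pecam1 values and the highest epithelium marker score, 0.255 above the sham mean. The part of tissue make-up in the vascular values of that mouse was not tested. Of 9 stroma markers 5 had higher and 4 lower means (median 0.04, mean -0.08), of 10 epithelium markers 4 and 6 (median -0.24, mean -0.14), of 9 macrophage markers 2 and 7 (median -0.15, mean -0.12), and of 9 neutrophil and platelet markers 5 and 4 (median 0.02, mean -0.06). At an unadjusted limma p under 0.05 there were 0 stroma and 0 macrophage markers, 2 lower epithelium markers and 1 lower neutrophil marker. Cldn7, an epithelial claudin, lay at 7.53 to 8.14 in ecig and 8.21 to 8.42 in sham mice, without overlap (log2 difference -0.49 ± 0.13 SE, limma adjusted p = 0.838), and Krt8, an epithelial keratin, had a log2 difference of -0.39 ± 0.17 (SE). Retnlg, a neutrophil marker, lay at 6.28 to 7.48 in ecig and 7.52 to 8.04 in sham mice, also without overlap (log2 difference -0.87 ± 0.22 SE, limma adjusted p = 0.838).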

How the data were processed

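Total RNA of 8 uteri was labelled with biotin by an Affymetrix protocol and hybridised to 1 array per mouse, per the labels' protocols. The authors deposited 1 table of log2 values for 22206 probe sets. The log2 scale is read from the values, 2.75 to 13.6. Per the submitters' processing notes Partek was used, and its steps are not stated there. After sorting, no 2 columns differ by more than 0.0198, so the arrays were taken as already put on 1 distribution, under which a shift common to all genes cannot be seen.

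Symbols came from the platform annotation, 19572 probe sets carrying 1 symbol, 0 several and 2634 none, and of 55 repeated symbols the brightest probe set was kept. Limma 3.58.1 (R 4.3.3) gave the ecig minus sham differences without covariates and adjusted by Benjamini-Hochberg over all probe sets, with a threshold of 0.05. Scores are mean log2 values of a list per mouse. Permutation tests were exact, over 70 assignments of mice for differences and 40320 orders for correlations. The members and the gene lists were chosen with earlier results of these data known. Genes named are the members, up to 3 non-members of smallest p per pathway list and 2 per cell type list, and the 3 most correlated genes per pattern, of which examples are printed. Hoxa10, Acta2 and Cdh5 were named outside this rule as checks. The fit was also run on simulated data with independent noise in each probe set. Correlation between genes was not simulated, and no result here rests on that run. Alternatives were other normalizations, filters on dim probe sets, variance moderation, array weights, a replicate block, the endothelium score as a covariate and leaving out mice. The correlations between members and their alternatives were added after the data were seen. The samples are biological replicates, per the labels.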

Additional observations from a re-analysis of the deposited data

Results flagged for a closer look

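In 6 of 168 groups of 4 mice (84 genes and scores in 2 groups), the gap between 1 mouse and its nearest neighbour passed Dixon's critical value, and chance alone passes about 1 group in 20. Among the members this held for Tie1 in sham mouse 1 (8.29, others 7.81 to 7.88). Sham mouse 1 also stood apart for Klhl4 (7.60, others 6.99 to 7.07) and for Itga2b, a platelet integrin (8.14, others 8.42 to 8.47). Sham mouse 4 stood apart for Epas1 (8.76, others 9.22 to 9.30) and Col1a1 (11.10, others 11.52 to 11.57). Among ecig mice, the stroma marker score of mouse 2 was low (10.05, others 10.40 to 10.46).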

How the results depend on the processing

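Of 198 differences of the 10 members under alternative settings, 183 kept their direction and 15 turned, and none passed limma's adjusted p (0.531 to 1). The filter at the 50th percentile removed Angpt2 and Flt4, which thus have no difference in that setting. Otherwise filters on dim probe sets, variance moderation, the replicate block and averaging of probe sets leave a difference as it is. The normalizations hardly move it, as the arrays were already on 1 distribution. Differences could turn only with array weights, the endothelium score as a covariate or mice left out, so 183 of 198 overstates their stability. With each mouse left out in turn they ran from -0.0944 to 0.184 for Vegfa, -0.117 to -0.0043 for Vegfc, 0.198 to 0.361 for Angpt1, 0.106 to 0.315 for Angpt2, -0.0656 to 0.149 for Kdr, -0.0648 to 0.119 for Flt1, 0.0223 to 0.140 for Flt4, 0.0852 to 0.294 for Tek, -0.0609 to 0.115 for Tie1 and 0.0355 to 0.286 for Pecam1. Tie1 was -0.0113 with array weights, and Vegfa -0.149 without ecig mice 2 and 4. With the endothelium score as a covariate Kdr was -0.0514, Flt1 -0.0310 and Tie1 -0.0633.

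Probe sets past adjusted p numbered 0, and 1 with that covariate (Slc26a7), and 0 to 1 with a mouse left out (Cldn10, without ecig mouse 1), where those at an unadjusted p under 0.05, 1203 in all, numbered 726 to 2545. They were 796 of the brighter 50% of probe sets, fewer being tested. Members at an unadjusted limma p under 0.05 numbered 1, Angpt1, with array weights, with the replicate block and without ecig mice 2 and 4, and 0 to 1 with a mouse left out (Angpt1 or Angpt2), where 5.40%, 5.74%, 3.98% and 3.27% to 11.5% of probe sets reached it, so these counts are near the background. Members whose groups did not overlap numbered 0 to 1 with a mouse left out (Vegfc, 4.64% of all genes) and 2 without ecig mice 2 and 4 (Angpt1 and Vegfc, 12% of all genes). Same-numbered mice of both groups had deviations that correlated at 0.0800, -0.238, 0.0850 and 0.0750. These values gave no sign of pairing by number, though so few mice cannot exclude it. The replicate block gave 1274 probe sets at an unadjusted p under 0.05 and a p of 0.0386 for Angpt1.

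The endothelium score difference ran from 0.00035 to 0.187 and that of Angpt2 minus Angpt1 from -0.199 to 0.0649 with a mouse left out. Correlations with the endothelium score then ran from 0.680 to 0.903 for Kdr and 0.587 to 0.874 for Flt1, which lost their call without 6 of the 8 mice each, -0.237 to 0.182 for Flt4, -0.0098 to 0.390 for Vegfc, and 0.924 to 0.978 for Pecam1, whose call held each time. Without ecig mice 2 and 4 they were 0.895 for Kdr and 0.873 for Flt1, neither passing with 6 mice, and -0.0958 for Vegfc. Causes were not tested. Quantile normalization and median centring changed no direction or call, which they could hardly do on arrays already on 1 distribution.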
